A study of Mus musculus with 15 samples.

Results

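Quercetin, myricetin and kaempferol are plant flavonols that share a flavone backbone and differ in the B ring, which carries a lone hydroxyl in kaempferol, a catechol in quercetin and a pyrogallol in myricetin. The comparison described here set the mean of the 3 compound groups, each with equal weight, against a cholesterol-rich model diet in mouse liver, and so asked which transcripts responded in common to the 3 flavonols. It contrasted 12 of the 15 libraries of the series, 9 from flavonol-treated mice (quercetin 2, 5 and 8, myricetin 5, 7 and 8, kaempferol 3, 5 and 8, numbered as in their titles) and 3 from model mice (1, 2 and 5). The other 3 libraries came from control mice on standard feed and entered the shared fit, including its estimate of the spread, but not the contrast.

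All mice were wild type and were fed for 6 weeks before liver RNA was sequenced. The model feed contained 78.8% standard components, 10% lard, 10% powdered egg yolk, 1% cholesterol and 0.2% sodium cholate. The flavonol groups also ate a high-fat diet and were gavaged daily with 1 compound, at 200 mg/kg for quercetin, 75 mg/kg for myricetin and 100 mg/kg for kaempferol. The labels do not give the composition of that diet, and it was taken to be that of the model. They also do not give sex, strain, time of day at collection, or whether model mice were gavaged with a vehicle. Whether each library stands for its own mouse is not stated, and p-values therefore measure the spread between these libraries only.

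Flavonols are taken up from the gut and reach the liver mainly as conjugates with glucuronic acid, sulfate or methyl groups. The liver makes bile acids from cholesterol, stores glycogen, and folds large amounts of secreted protein in the endoplasmic reticulum (ER) with the help of chaperones and protein disulfide isomerases. Many of its genes follow the circadian clock, in which ARNTL (BMAL1) and CLOCK activate genes through E-boxes, the CRY and PER proteins repress them, and the receptors REV-ERB (Nr1d1, Nr1d2) and ROR compete for shared elements in genes such as Arntl.

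The libraries held totals of 15.9 to 17.6 M expected counts and 14615 to 14929 genes above 0. Levels are given as CPM, the count scaled to library size with TMM factors. Correlations of log2 CPM between libraries ran from 0.956 to 0.987, and no library pair of a group agreed within sampling noise. Of 21 hepatocyte markers tested 0 passed (edgeR; 5 at an unadjusted p under 0.05 and 1 by DESeq2), and their summed level was 86980.0 to 106700.0 CPM in the model libraries and 88800.0 to 134300.0 CPM in the 9 flavonol libraries.

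In the mean of the 3 flavonols, the clock repressor genes Nr1d1 and Nr1d2 rose and Cry1 fell, with all 9 libraries apart from the model. Arntl also fell in the mean, but its kaempferol libraries overlapped the model. The ER chaperone genes Calr and Pdia4 also fell, as did the monooxygenase gene Moxd1. In all, 284 of 12658 genes passed an adjusted p of 0.05 (quasi-likelihood test of edgeR, Benjamini-Hochberg), which is 2.24%. Of these 125 were higher (0.988%) and 159 lower (1.26%). The median size of a called change was 0.60 on the log2 scale, and 55 genes changed at least 2-fold, 18 upward and 37 downward.

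In 208 of the called genes (1.64% of all genes tested) the 9 flavonol libraries lay wholly above (97, 0.766%) or wholly below (111, 0.877%) the 3 model libraries. In the other 76 called genes the groups overlapped. Regardless of the test, 592 genes (4.68%) had all 9 libraries on the same side of the model, 295 above (2.33%) and 297 below (2.35%). The spread counted here is that between libraries of a group, not that between compounds. When the 9 libraries were treated as 1 group, so that differences among compounds entered the spread, 48 genes passed, of which 42 were among the 284. Most of the genes described first below lost their call in that fit, with adjusted p-values of 0.124 for Nr1d1, 0.187 for Nr1d2, 0.159 for Cry1, 0.629 for Arntl, 0.366 for Dbp, 0.26 for Lonrf3, 0.083 for Moxd1 and 0.113 for Trib3, while Nat8f5 passed (0.0182).

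The count also turned on the compounds and on single model libraries. It was 75 for the mean of myricetin and kaempferol, 251 for that of quercetin and kaempferol and 577 for that of quercetin and myricetin, and 59 of the 284 genes passed in each of these. It fell to 76 without model library 1, to 62 without model library 2 and to 91 without model library 5, and was 182 without kaempferol library 3.

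The doses of the 3 compounds differ (200, 75 and 100 mg/kg/day), so values are set side by side and 0 pairs of compounds were compared by test. The 3 sets of single-compound values also share the model libraries. Over all genes tested, the medians of the single-compound log2 fold changes were 0.01 for each of quercetin, myricetin and kaempferol. Among the 31 named genes that passed, 13 passed without the quercetin group, 29 without the myricetin group and 30 without the kaempferol group. Calls that ended without quercetin were those of Arntl, Dbp, Lonrf3, Pdia4, Ppard, Retreg1, Tns2, Col27a1 and Slc17a8. Those of Cyp2c70, Cyp8b1, Ppp1r3c, Pygl, Socs3, Lbp, Slc39a14, Slc30a10 and Serpina1e ended as well.

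**Figure D1:**
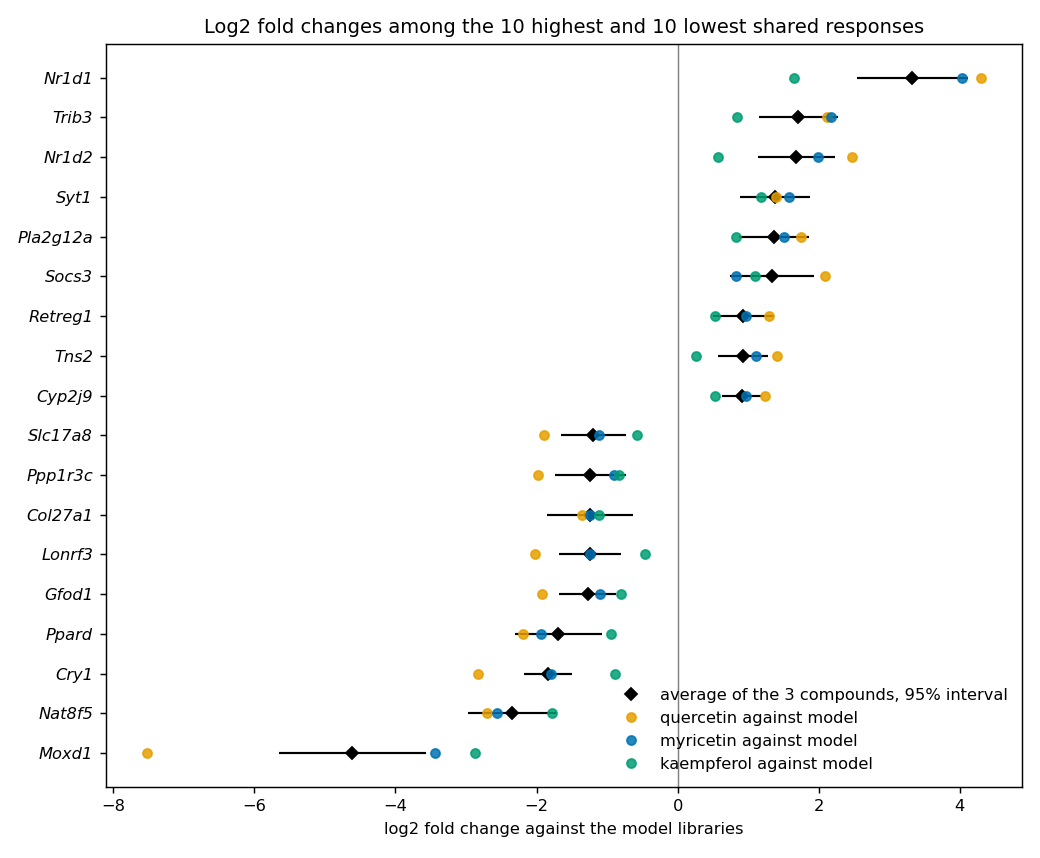
Log2 fold changes against the 3 model libraries for genes among the 10 highest and 10 lowest of those that passed and whose 9 flavonol libraries lay apart from the model; black diamonds give the equal-weight mean of the 3 compounds with its 95% interval, coloured points the single compounds. Every compound point lies on the side of the mean, as the choice of genes by the position of their libraries required. The means run from -4.61 for Moxd1 to 3.33 for Nr1d1.

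Of 16 core clock genes tested, 2 rose and 4 fell, which is 37.5% against 2.24% of all genes. The median log2 fold change of the list was -0.29, against 0.01 over all genes. The KEGG circadian rhythm group of the deposited annotation, looked up after the values were seen, had a lower share. Of its 28 genes tested 1 rose and 3 fell (14.3%), with a median of -0.01. With the 9 libraries as 1 group, 1 of them passed. Nr1d1 (chr11:98767932-98775377 on GRCm38.p6), which encodes the repressor REV-ERB alpha, stood at 4.16, 6.63 and 7.05 CPM in the model libraries. It reached 151, 86.8 and 113 CPM with quercetin, 73.3, 134 and 84.1 CPM with myricetin and 17.9, 14.1 and 24.1 CPM with kaempferol. The lowest flavonol library was thus higher than every model library, and the kaempferol libraries were the lowest of the 9. The log2 fold change was 3.33 ± 0.36 (SE) with an adjusted p of 0.00128 (edgeR).

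Its relative Nr1d2 (chr14:18204056-18239106), which encodes REV-ERB beta, was at 12.1, 12.1 and 17.7 CPM in the model and at 80.5, 70.3 and 81.4 CPM with quercetin. With myricetin it was at 39.8, 75.2 and 51.2 CPM and with kaempferol at 19.2, 17.8 and 25.0 CPM. All 9 libraries were above the model, although kaempferol library 5 was only just so. The mean change was 1.68 ± 0.25 (SE) (edgeR adjusted p = 0.00567).

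Promoter windows of 300 bases, from 250 before to 50 after the annotated start, are shown for the 3 named clock genes that hold a clock motif in this window. They were taken from RefSeq on GRCm38.p6 and are written on the gene's strand, 5′ to 3′. Capitals mark the E-box CACGTG in Cry1 and Lonrf3, and the ROR and REV-ERB element TAGGTCA in Arntl.
Cry1 (chr10:85185005-85185304, minus strand): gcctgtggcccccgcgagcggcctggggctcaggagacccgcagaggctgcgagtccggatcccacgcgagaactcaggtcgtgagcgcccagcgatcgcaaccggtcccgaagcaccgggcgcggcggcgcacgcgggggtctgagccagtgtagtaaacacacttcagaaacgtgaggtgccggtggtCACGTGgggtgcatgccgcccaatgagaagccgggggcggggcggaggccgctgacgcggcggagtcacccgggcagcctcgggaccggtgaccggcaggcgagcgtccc
Lonrf3 (chrX:36328159-36328458, plus strand): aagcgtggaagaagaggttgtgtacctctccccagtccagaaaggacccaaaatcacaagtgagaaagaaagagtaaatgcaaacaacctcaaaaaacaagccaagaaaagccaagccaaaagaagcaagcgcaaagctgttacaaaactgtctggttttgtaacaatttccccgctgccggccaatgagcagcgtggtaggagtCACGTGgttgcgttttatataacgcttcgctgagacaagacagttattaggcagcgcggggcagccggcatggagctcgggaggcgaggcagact
Arntl (chr7:113207261-113207560, plus strand): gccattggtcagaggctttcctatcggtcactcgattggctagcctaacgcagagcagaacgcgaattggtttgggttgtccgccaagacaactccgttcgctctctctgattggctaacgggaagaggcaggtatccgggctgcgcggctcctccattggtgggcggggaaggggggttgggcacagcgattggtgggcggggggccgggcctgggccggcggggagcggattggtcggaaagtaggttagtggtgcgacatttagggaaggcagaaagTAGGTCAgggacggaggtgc
The search covered both strands of the windows for CACGTG (E-box), TTATGTAA or TTACGTAA (D-box) and TAGGTCA or TGGGTCA (ROR and REV-ERB element). Of 32851 windows in the table, 7.15% held the E-box, 1.06% the D-box and 6.45% the ROR and REV-ERB element. The windows of Nr1d1, Nr1d2 and Dbp held none of these letters, and neither did the other window of Arntl. A match is a description of the sequence and no evidence of binding.

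Cry1 (chr10:85131700-85185054), a core repressor of the clock whose window holds the E-box shown above, stood at 52.0, 44.5 and 48.0 CPM in the model. It was at 4.11, 7.38 and 8.86 CPM with quercetin, 17.8, 13.4 and 10.2 CPM with myricetin and 22.9, 25.6 and 29.8 CPM with kaempferol. The 3 compound groups did not overlap each other or the model. The log2 fold change was -1.84 ± 0.16 (SE), with an edgeR adjusted p of 4.31e-05.

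Arntl (chr7:113178471-113314126), the gene of the clock activator BMAL1, had a change of -1.41 ± 0.19 (SE) (edgeR adjusted p = 0.002), but its groups overlapped. It was at 30.9, 27.2 and 27.8 CPM in the model and 3.56, 1.33 and 3.08 CPM with quercetin. With myricetin it was at 23.2, 16.3 and 12.9 CPM and with kaempferol at 28.8, 28.6 and 23.6 CPM. Quercetin and myricetin libraries were below the model and kaempferol libraries overlapped it. Without the quercetin group the change was -0.40 (adjusted p = 0.421).

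Dbp (chr7:45705100-45710203), a transcription factor whose transcript is a direct clock output, was split in the same way. The model libraries were at 2.20, 2.79 and 3.03 CPM, the quercetin libraries at 141, 163 and 126 CPM, the myricetin libraries at 5.55, 19.8 and 25.2 CPM and the kaempferol libraries at 1.49, 1.27 and 1.99 CPM. Quercetin and myricetin libraries were above and kaempferol libraries below every model library. The mean change of 2.55 ± 0.42 (SE) (edgeR adjusted p = 0.011) averages single-compound values of 5.74 with quercetin, 2.65 with myricetin and -0.74 with kaempferol, and it was 0.95 (adjusted p = 0.413) without quercetin. In the list of 12 clock output and temperature-responsive genes (16.7% called against 2.24% of all genes), the other call was Lonrf3 (chrX:36328358-36366857). It was at 15.8, 18.1 and 19.2 CPM in the model and 2.89 to 14.0 (median 6.83) CPM over the 9 flavonol libraries, which did not overlap. The change of Lonrf3 was -1.25 ± 0.20 (SE) (edgeR adjusted p = 0.00637). Its single-compound values were -2.03 with quercetin, -1.24 with myricetin and -0.47 with kaempferol (95% interval -1.02 to 0.08). Without quercetin its adjusted p (edgeR) was 0.0986.

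A further core clock call was Nfil3, a D-box repressor outside the naming rule and chosen here after its values were seen, with -0.74 ± 0.15 (SE) (edgeR adjusted p = 0.0216). Its groups overlapped, and the single-compound values were -1.50 with quercetin, -0.65 with myricetin and -0.05 with kaempferol. Among core clock genes that did not pass were Npas2, with -2.17 ± 0.57 (SE) (adjusted p = 0.0749), Per2, with -1.16 ± 0.35 (SE) (adjusted p = 0.118), and Ciart, with 1.75 ± 0.63 (SE) (adjusted p = 0.175). The number of core clock calls was 4 to 8 as single libraries were left out, 5 without quercetin and 11 without kaempferol. Without model library 2, Nr1d2 had an adjusted p of 0.0532, and Dbp missed the threshold without each model library in turn (adjusted p 0.0553 to 0.0778). Since the labels give no time of collection, a difference in time of day between the groups and a difference from treatment cannot be told apart.

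**Figure D2:**
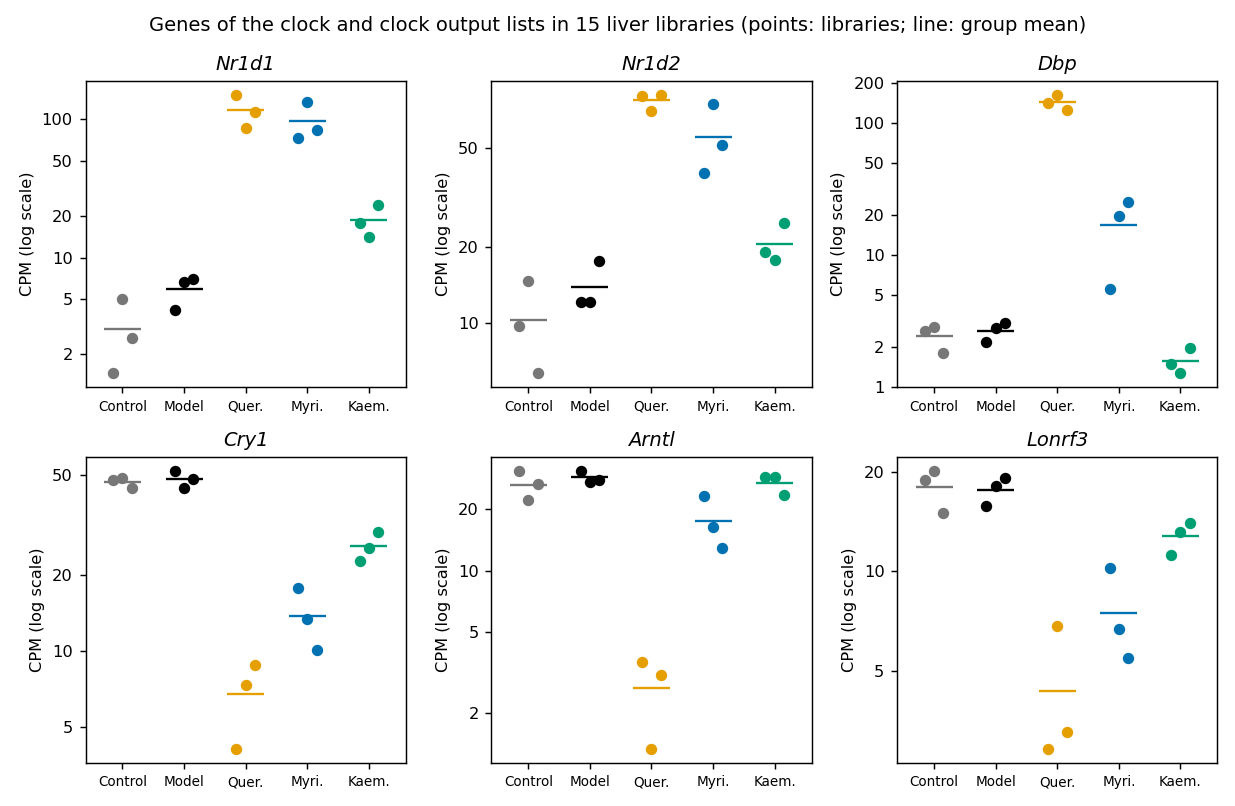
CPM (log axis) of 6 genes of the clock and clock output lists in each of the 15 libraries, by group; points are libraries and lines group means. All 9 flavonol libraries lie above the model in Nr1d1 and Nr1d2 and below it in Cry1 and Lonrf3; the kaempferol libraries overlap the model in Arntl and lie below it in Dbp.

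Outside the clock, the lowest value of the named genes belonged to Moxd1 (chr10:24223517-24302783), a copper-dependent monooxygenase of the dopamine beta-hydroxylase family that is more abundant in male mouse liver. It was at 27.7, 21.5 and 60.3 CPM in the model, 0, 0.222 and 0.369 CPM with quercetin, 2.69, 6.57 and 0.862 CPM with myricetin and 3.10, 7.26 and 4.66 CPM with kaempferol. The 9 flavonol libraries lay below the model, quercetin lowest, and on both sides of the 1.97, 1.16 and 1.86 CPM of the control libraries. The change was -4.61 ± 0.48 (SE) (edgeR adjusted p = 0.00121), and the fitted quercetin value behind it rests on libraries at or close to 0.

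Nat8f5 (chr6:85817218-85820972), which encodes an N-acetyltransferase of a tandem family, was at 53.5, 50.9 and 76.5 CPM in the model and 6.78, 12.5 and 8.49 CPM with quercetin. It was at 15.2, 8.68 and 6.67 CPM with myricetin and 18.3, 24.6 and 9.82 CPM with kaempferol. The 9 libraries lay below the model without overlap, with a change of -2.35 ± 0.29 (SE) (edgeR adjusted p = 0.00259). Its relatives Nat8f6 (-2.30, edgeR adjusted p = 0.000162) and Nat8f7 (-3.40, edgeR adjusted p = 0.000378), named after their values were seen, were also lower in all 9 libraries. Both were at low levels. Nat8f6 was at 3.06, 2.79 and 3.95 CPM in the model and 0.402 to 0.905 CPM with flavonols. Nat8f7 was at 1.22, 1.05 and 1.84 CPM in the model and 0 to 0.397 CPM with flavonols, so its fold change rests on libraries at or close to 0. The sequences of these relatives were not compared. The counting may have divided reads between them, so their separate values are uncertain.

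Ppard, the gene of the fatty acid receptor PPAR delta, was at 26.6, 36.5 and 31.3 CPM in the model and 5.00 to 19.6 (median 8.49) CPM in the 9 flavonol libraries, which did not overlap. It fell, and the change was -1.69 ± 0.28 (SE) (edgeR adjusted p = 0.0101).

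Rising genes included Syt1 (chr10:108497650-109010980), a calcium sensor of vesicle fusion, which was at 4.04, 2.68 and 4.41 CPM in the model and 4.83 to 13.2 (median 10.4) CPM in the 9 flavonol libraries, without overlap, with a mean change of 1.38 ± 0.24 (SE) (edgeR adjusted p = 0.00637). Its single-compound values were 1.39 with quercetin, 1.58 with myricetin and 1.18 with kaempferol. Pla2g12a (chr3:129878606-129895825), a secreted phospholipase A2, was at 8.08, 7.85 and 7.84 CPM in the model and 13.5 to 35.3 (median 20.6) CPM in the flavonol libraries. Its change was 1.36 ± 0.23 (SE) (edgeR adjusted p = 0.00848).

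Among the other genes that rose in all 9 libraries were Retreg1, an ER-phagy receptor, with 0.93 ± 0.20 (SE), Tns2, a focal adhesion protein, with 0.93 ± 0.17 (SE), and the epoxygenase Cyp2j9, with 0.91 ± 0.13 (SE). Their adjusted p-values (edgeR) were 0.0294, 0.00944 and 0.00259. The genes that fell in all 9 further included Gfod1 (-1.28 ± 0.19 (SE)), the fibrillar collagen gene Col27a1 (-1.24 ± 0.28 (SE)) and Slc17a8, a vesicular glutamate transporter (-1.20 ± 0.21 (SE)), with adjusted p-values of 0.00301, 0.0431 and 0.0132.

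Of these genes outside the clock, Moxd1, Nat8f5, Cyp2j9 and Gfod1 passed whichever library was left out. Without model library 2 the adjusted p was 0.069 for Syt1 and Ppard and 0.0697 for Pla2g12a, and it reached 0.0879 for Tns2, 0.172 for Retreg1, 0.0721 for Slc17a8 and 0.18 for Col27a1 over the libraries left out. Col27a1 lost its call without each of 11 libraries in turn, controls included. Without the quercetin group the adjusted p (edgeR) was 0.0644 for Ppard, 0.0944 for Tns2, 0.127 for Retreg1, 0.118 for Col27a1 and 0.133 for Slc17a8. The other genes of this paragraph still passed.

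**Figure D3:**
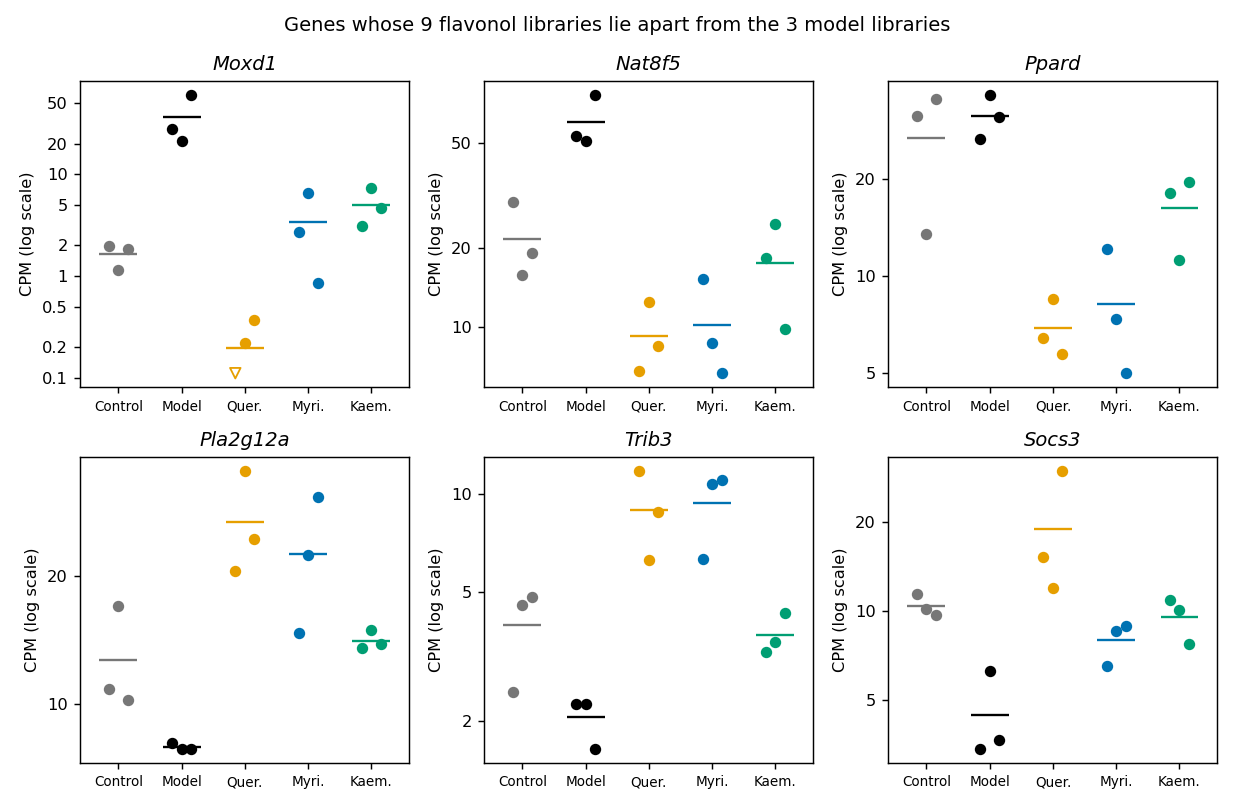
CPM (log axis) in each of the 15 libraries for 3 genes that fell and 3 that rose in all 9 flavonol libraries; points are libraries, lines group means, and the open triangle is a library at 0 CPM drawn below the axis range of the others. For Moxd1 the model libraries stand at 27.7, 21.5 and 60.3 CPM and the flavonol libraries at or below 7.26 CPM, while for Pla2g12a they stand at 8.08, 7.85 and 7.84 CPM and the flavonol libraries at or above 13.5 CPM.

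The ER chaperone genes Calr and Pdia4 fell, with lower levels in all 3 compound groups. In the list of ER and integrated stress genes, 1 of 20 tested rose and 2 fell, 15% against 2.24% of all genes, with a median of -0.27. Calr (chr8:84842088-84846931), the lectin chaperone calreticulin, stood at 1227, 1205 and 1316 CPM in the model. It was at 859, 725 and 779 CPM with quercetin, 948, 829 and 772 CPM with myricetin and 849, 961 and 854 CPM with kaempferol. The change was -0.57 ± 0.10 (SE) (edgeR adjusted p = 0.00637), and single compounds gave -0.67 with quercetin, -0.56 with myricetin and -0.49 with kaempferol.

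Pdia4 (chr6:47796141-47813512), a protein disulfide isomerase, went from 337, 327 and 294 CPM in the model to 195, 187 and 160.2 CPM with quercetin, 211, 210.4 and 219.6 CPM with myricetin and 180.1, 199 and 195 CPM with kaempferol. No library of the 3 compounds overlapped the model. Its change was -0.71 ± 0.16 (SE) (edgeR adjusted p = 0.0302). The member that rose was Trib3 (chr2:152337425-152344060), a pseudokinase induced by the integrated stress response, at 2.27, 2.27 and 1.65 CPM in the model and 3.27 to 11.8 (median 6.35) CPM in the flavonol libraries. Its change was 1.71 ± 0.27 (SE) (edgeR adjusted p = 0.00383).

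The 17 members that did not pass included the chaperone Hspa5 (BiP), at 1145, 1303 and 917 CPM in the model and 452 to 922 (median 702) CPM with flavonols. Its flavonol and model libraries overlapped, and its change was -0.73 ± 0.27 (SE) (adjusted p = 0.191). The transcription factors of the stress response Atf4, Ddit3 and Xbp1 had changes of 0.10, -0.09 and -0.08 (adjusted p 0.59, 0.923 and 0.751). The amino acid stress target Asns was at 0.24 (adjusted p = 0.917).

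A wider view was taken after these values were seen, with the KEGG groups of the deposited annotation. Of 156 tested genes assigned to protein processing in the ER, 0 rose and 14 fell (8.97% against 2.24% of all genes). Regardless of the test, 25 had all 9 flavonol libraries below the model and 3 had all above. Over all genes these shares were 2.35% below and 2.33% above. The median over the group was -0.09. The 14 genes covered successive steps of the pathway. They were Sec63 and Rpn1 of translocation and glycosylation, Calr, Canx and Uggt1 of the lectin chaperone cycle, Pdia3, Pdia4, Pdia6 and P4hb of disulfide formation, the cochaperones Dnajb11 and Dnajc1, Edem1 of degradation, the cargo receptor Lman2, and Hspa4l, a cytosolic Hsp110-type protein.

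P4hb was at 1693, 1528 and 1532 CPM in the model, 1232, 1179.8 and 1108 CPM with quercetin, 1190.5, 1102 and 1099.9 CPM with myricetin and 1211, 1376 and 1194 CPM with kaempferol. Its change was -0.42 ± 0.08 (SE) (edgeR adjusted p = 0.011) without overlap of the groups. Edem1 was at 218, 207 and 196 CPM in the model and 146 to 175 (median 154) CPM in the flavonol libraries, and the compounds gave -0.39 with quercetin, -0.42 with myricetin and -0.41 with kaempferol. Except for Hspa4l (-0.96 with quercetin, -0.61 with myricetin and -0.28 with kaempferol), single-compound values of the 14 genes lay between -0.82 and -0.26.

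These small changes depended on the model libraries. Without model library 1 or 2, 1 gene of the KEGG group passed, and without model library 5, 4 did. With other libraries left out 9 to 20 passed. The count was 3 without the quercetin group, and it was 8 when the 9 libraries were treated as 1 group, where Calr (adjusted p = 0.0182) and Pdia4 (0.00432) passed. Pdia4 lost its call without each of 6 libraries (adjusted p up to 0.157), whereas Calr kept it in each case (up to 0.0481).

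**Figure D4:**
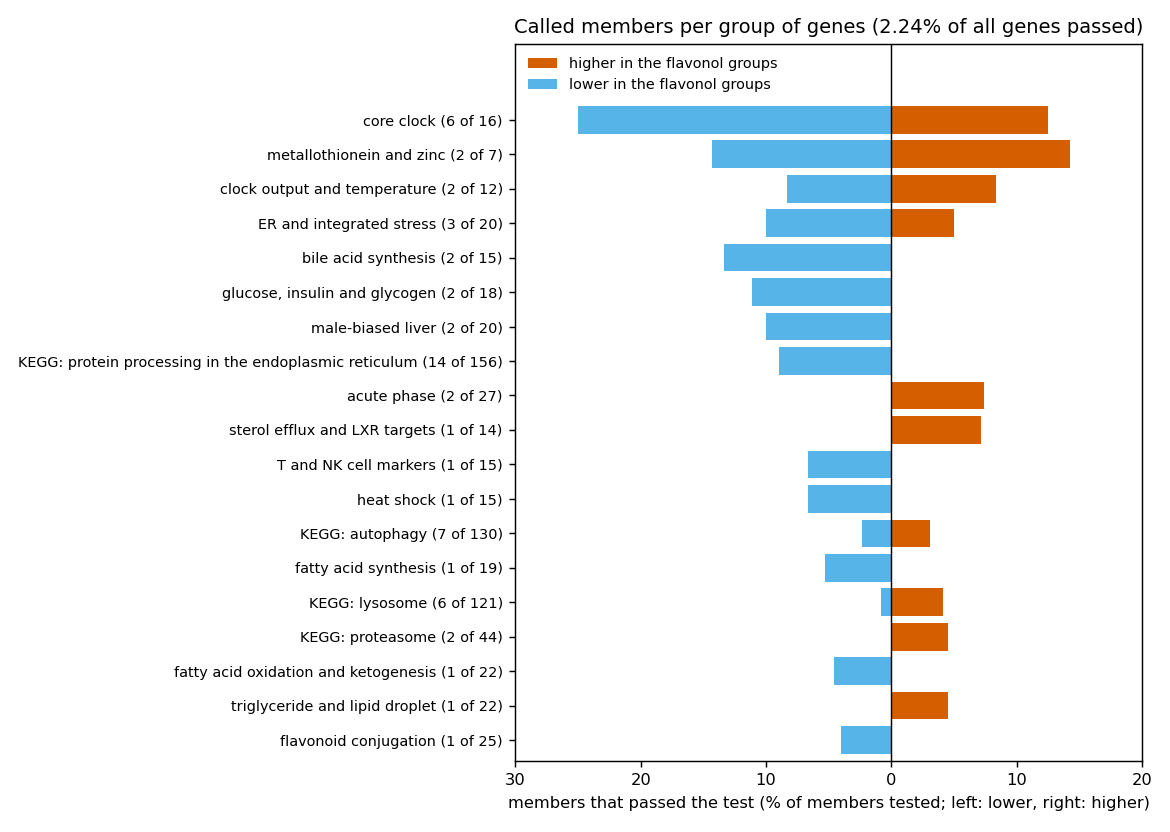
Share of tested members that passed the test in each list with at least 1 call, and in 4 KEGG groups of the deposited annotation, with lower genes to the left and higher genes to the right of 0; labels give called and tested members. The core clock list has the highest share (6 of 16), and the ER protein processing group, with 14 of 156, has lower genes only, against 2.24% of all genes. The KEGG circadian rhythm group is not drawn.

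The bile acid genes Cyp2c70 and Cyp8b1 and the glycogen genes Ppp1r3c and Pygl fell. Of 15 bile acid synthesis genes tested 2 fell and 0 rose (13.3% against 2.24% of all genes), with a median of -0.11. Cyp2c70 (chr19:40153361-40187286), which makes the muricholic acids of the mouse, was at 807, 838 and 931 CPM in the model. It was at 573, 253 and 526 CPM with quercetin, 638, 509.8 and 504 CPM with myricetin and 594, 635 and 549.8 CPM with kaempferol, all below the model. The control libraries were at 579, 549 and 459 CPM, and quercetin library 5, at 253 CPM, was below each of them. The change was -0.70 ± 0.17 (SE) (edgeR adjusted p = 0.0476).

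Cyp8b1 (chr9:121914356-121916305), the sterol 12-alpha-hydroxylase that directs synthesis to cholic acid, was at 532, 459.9 and 512 CPM in the model and 119, 253 and 168 CPM with quercetin. With myricetin it was at 399, 329.9 and 344 CPM and with kaempferol at 398, 533 and 379 CPM. Quercetin and myricetin libraries were below the model and kaempferol libraries overlapped it. The change was -0.72 ± 0.18 (SE) (edgeR adjusted p = 0.048), and -0.34 (adjusted p = 0.482) without quercetin. Cyp7a1, the rate-limiting enzyme of the pathway, was at 152, 156 and 139 CPM in the model and 41.7 to 190.1 (median 59.7) CPM with flavonols, with -0.87 ± 0.48 (SE) (adjusted p = 0.393).

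In the glucose, insulin and glycogen list 2 of 18 fell and 0 rose (11.1% against 2.24% of all genes). Ppp1r3c (chr19:36731731-36736604), a glycogen-targeting subunit of protein phosphatase 1, was at 143, 151 and 131 CPM in the model and 43.5, 23.9 and 40.5 CPM with quercetin. It was at 101, 63.9 and 62.3 CPM with myricetin and 88.3, 50.2 and 100.0 CPM with kaempferol. All 9 libraries were below the model, with a change of -1.24 ± 0.23 (SE) (edgeR adjusted p = 0.0204). Pygl, the liver glycogen phosphorylase, was at 623, 636 and 590.0 CPM in the model and 381 to 549 (median 462) CPM in the flavonol libraries, also without overlap. Its change was -0.43 ± 0.10 (SE) (edgeR adjusted p = 0.0294).

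Both bile acid calls and both glycogen calls were lost without each model library in turn, with adjusted p up to 0.22 for Cyp8b1, 0.178 for Cyp2c70, 0.153 for Pygl and 0.0937 for Ppp1r3c. For Cyp8b1 and Cyp2c70 leaving out other libraries, controls included, also ended the call (10 and 11 of the 15 libraries). Without the quercetin group the adjusted p (edgeR) was 0.166 for Ppp1r3c, 0.143 for Pygl and 0.177 for Cyp2c70, so these calls ended too. With the 9 libraries as 1 group it was 0.187, 0.131 and 0.137, and 0.456 for Cyp8b1.

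Lipid genes gave few calls common to the flavonols, and in Srebf1 the quercetin and kaempferol libraries lay on opposite sides of the model. Of 19 fatty acid synthesis genes tested, 1 fell (5.26% against 2.24% of all genes) and 0 rose, with a median of -0.27. This was Thrsp, a lipogenic regulator named after its values were seen, with a mean of -1.34 ± 0.29 (SE) (edgeR adjusted p = 0.038). Its single-compound values were 0.24 with quercetin (95% interval -0.58 to 1.06), -2.07 with myricetin and -2.18 with kaempferol. The quercetin libraries of Thrsp overlapped the model. Srebf1, the gene of the lipogenic regulator SREBP-1, was at 401, 336 and 402 CPM in the model, 633, 501 and 499 CPM with quercetin, 371, 288 and 311 CPM with myricetin and 196, 152 and 180.2 CPM with kaempferol. Quercetin libraries were all above and kaempferol libraries all below the model, and the mean of -0.27 ± 0.13 (SE) did not pass (adjusted p = 0.309).

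Fasn, the fatty acid synthase, had single-compound values of 0.39 with quercetin, -1.03 with myricetin and -1.52 with kaempferol and a mean of -0.72 ± 0.29 (SE) (adjusted p = 0.239). Scd1, a desaturase, was at 7069.9, 5767 and 5409 CPM in the model and 3042 to 6825 (median 3747) CPM with flavonols, with -0.49 ± 0.28 (SE) (adjusted p = 0.396). The lipid droplet protein Plin2 had values of -0.77 with quercetin, -0.32 with myricetin and 0.28 with kaempferol. Its mean was -0.27 ± 0.14 (SE) (adjusted p = 0.336). The kaempferol value had a 95% interval of -0.08 to 0.64, and the kaempferol libraries overlapped the model. The 1 call among 22 triglyceride and droplet genes (4.55% against 2.24% of all genes) was Pnpla2 (adipose triglyceride lipase), named after its values were seen. Pnpla2 was higher in all 9 libraries with 0.52 ± 0.12 (SE) (edgeR adjusted p = 0.0302).

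Cpt1a, which admits fatty acids to mitochondria, stood at 252, 235 and 238 CPM in the model and 261 to 365 (median 305) CPM with flavonols. Its 9 libraries were all above the model, yet the change of 0.32 ± 0.10 (SE) did not pass (adjusted p = 0.0972). Of the 22 oxidation and ketogenesis genes 1 fell (4.55% against 2.24% of all genes) and 0 rose. It was Pdk4, a brake on pyruvate oxidation named after its values were seen, with -1.29 ± 0.28 (SE) (edgeR adjusted p = 0.0294) and overlapping groups.

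Of 14 sterol efflux genes and targets of the oxysterol receptor LXR, 1 rose (7.14% against 2.24% of all genes) and 0 fell. The list median was 0.27. The call was Soat2, which esterifies cholesterol, named after its values were seen. It had 0.42 ± 0.10 (SE) (edgeR adjusted p = 0.0397) and overlapping groups. The sterol exporter genes Abcg5 and Abcg8 had 0.79 ± 0.29 (SE) and 0.83 ± 0.25 (SE) (adjusted p 0.18 and 0.109). Of 22 cholesterol synthesis genes 0 passed in edgeR, with a median of -0.24, 7 at an unadjusted p under 0.05 and 2 by DESeq2. Sqle, a member of this list, was at 1.96, 8.20 and 0.922 CPM in the model and 0.191 to 4.78 (median 2.29) CPM with flavonols, with -0.81 ± 0.63 (SE) (adjusted p = 0.555).

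Targets of the fatty acid receptor PPAR alpha gave no calls in edgeR. Of 10 tested, 0 passed in edgeR (5 at an unadjusted p under 0.05 and 4 by DESeq2), and the median was 0.59. Cyp4a14 was at 5.14, 8.03 and 2.37 CPM in the model, 134, 298 and 54.5 CPM with quercetin, 5.95, 250.0 and 165 CPM with myricetin and 82.3, 74.7 and 21.7 CPM with kaempferol. Myricetin library 5 lay within the model range and the 8 others above it, and the mean of 4.40 ± 1.24 (SE) had an adjusted p of 0.0996. The scavenger receptor Cd36 had 0.05 ± 0.36 (SE) (adjusted p = 0.968).

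**Figure D5:**
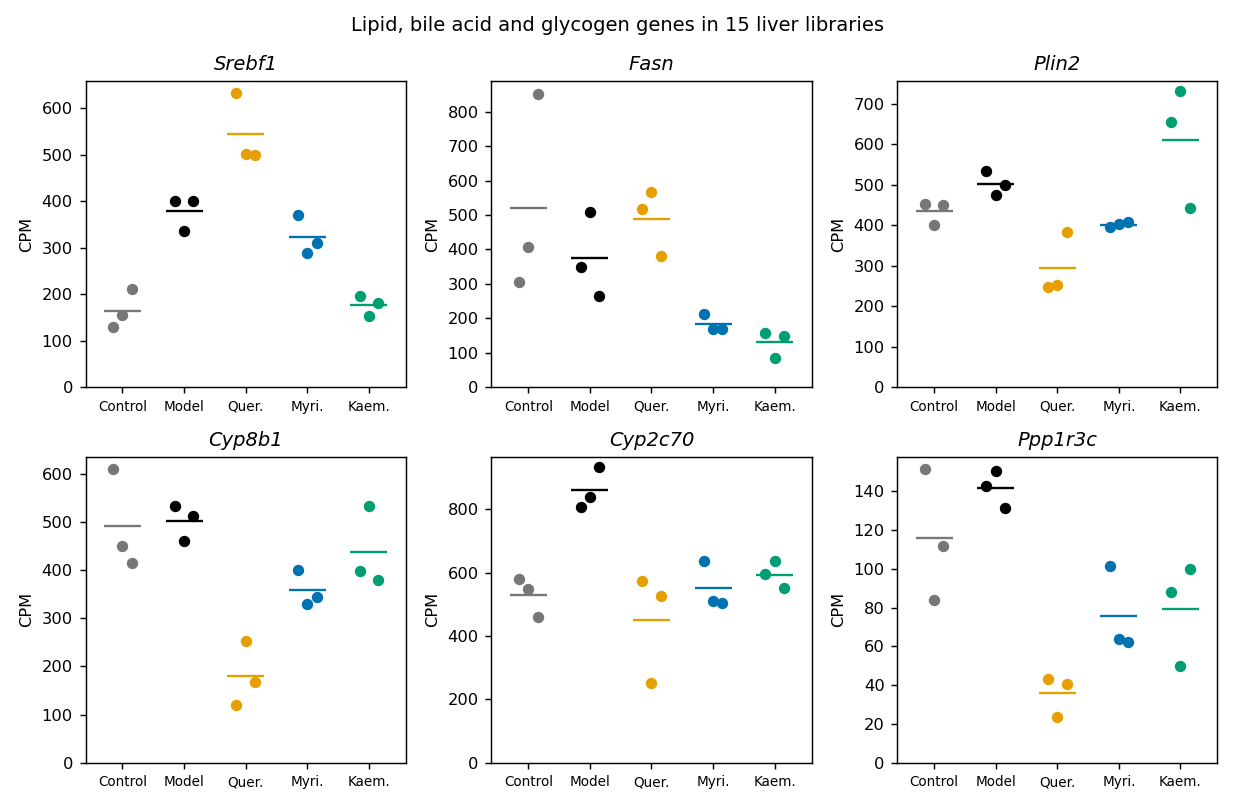
CPM in each of the 15 libraries for 6 lipid, bile acid and glycogen genes, on linear axes from 0; points are libraries and lines group means. In Srebf1 the quercetin libraries lie above and the kaempferol libraries below the model, while Cyp2c70 and Ppp1r3c lie below the model libraries in all 9 flavonol libraries.

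Inflammation and metal handling gave calls in a few members. Of 27 acute phase genes 2 rose (7.41% against 2.24% of all genes) and 0 fell, with a median of 0.29. Socs3 (chr11:117966079-117973506), an inhibitor of cytokine signalling, was at 3.43, 6.28 and 3.69 CPM in the model, 15.2, 11.99 and 29.9 CPM with quercetin, 6.52, 8.56 and 8.91 CPM with myricetin and 10.9, 10.1 and 7.78 CPM with kaempferol. All 9 libraries were above the model, quercetin library 8 highest, and the control stood at 11.4, 10.2 and 9.75 CPM. The change was 1.34 ± 0.28 (SE) (edgeR adjusted p = 0.024).

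Lbp, the lipopolysaccharide-binding protein, was at 81.8, 63.2 and 65.0 CPM in the model and 74.1 to 131 (median 98.7) CPM with flavonols, where 1 quercetin library overlapped the model. Its change was 0.55 ± 0.13 (SE) (edgeR adjusted p = 0.0388). The acute phase proteins Saa1 and Hp had 0.51 ± 0.69 (SE) and -0.04 ± 0.13 (SE) (adjusted p 0.768 and 0.914). Socs3 lost its call without model library 1 or 5 (adjusted p up to 0.146), and Lbp without each of 9 libraries (up to 0.219).

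Of 7 metallothionein and zinc genes 1 rose and 1 fell (28.6% against 2.24% of all genes). Slc39a14, an importer of zinc and manganese, was at 129, 129 and 113 CPM in the model and 135 to 211 (median 159) CPM with flavonols, without overlap, with 0.40 ± 0.09 (SE) (edgeR adjusted p = 0.0352). Slc30a10, a manganese exporter, was at 63.1, 70.8 and 61.7 CPM in the model and 30.0, 25.0 and 30.0 CPM with quercetin. It was at 65.4, 52.3 and 51.8 CPM with myricetin and 60.1, 54.6 and 62.3 CPM with kaempferol, which overlapped the model, and the change was -0.52 ± 0.09 (SE) (edgeR adjusted p = 0.00849). Without model library 2 its adjusted p was 0.069, and Slc39a14 lost its call without each of 5 libraries (up to 0.19).

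The metallothioneins themselves did not pass. Mt1 was at 1.90, 1.28 and 0.856 CPM in the model and 2.61 to 48.4 (median 10.9) CPM with flavonols, all 9 above the model, and its change of 3.44 ± 0.94 (SE) had an adjusted p of 0.0907. Mt2 had 4.13 ± 1.15 (SE) (adjusted p = 0.0941).

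Of 20 male-biased liver genes 2 fell (10% against 2.24% of all genes) and 0 rose, with a median of -0.22. They were Moxd1, given above, and Serpina1e, an alpha-1-antitrypsin gene. Serpina1e was at 18265, 15364 and 16060.5 CPM in the model and 7897 to 15087 (median 11097) CPM with flavonols, without overlap, with -0.55 ± 0.12 (SE) (edgeR adjusted p = 0.0253). Its reads may be shared with other Serpina1 copies, and it lost its call without each model library (adjusted p up to 0.175). Other male-biased genes such as Elovl3 (-1.26 ± 0.31 (SE), adjusted p = 0.0591) and Hsd3b5 (-0.00 ± 0.23 (SE), adjusted p = 0.997) did not pass.

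Few genes of enzymes that metabolise flavonoids passed the test. Of 25 conjugation genes (UGT, SULT and related families) 1 fell (4% against 2.24% of all genes) and 0 rose. It was Ugt2b1, a glucuronosyltransferase named after its values were seen, at 1018, 803 and 1088 CPM in the model and 369 to 692 (median 606) CPM with flavonols, with -0.74 ± 0.13 (SE) (edgeR adjusted p = 0.00848). Of 7 targets of the aryl hydrocarbon receptor, 25 NRF2 and glutathione genes and 21 xenobiotic P450 genes 0 passed in edgeR. At an unadjusted p under 0.05 there were 1, 5 and 4 of them, and DESeq2 called 0, 1 and 0. Cyp1a1, the classic target of the aryl hydrocarbon receptor, was at 0.857, 1.16 and 0.856 CPM in the model and 0.941 to 2.22 (median 1.28) CPM with flavonols, with 0.48 ± 0.25 (SE) (adjusted p = 0.357).

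Including these 3 and the cholesterol synthesis and PPAR alpha lists, 13 pathway lists with 224 genes had 0 calls in edgeR, with 50 at an unadjusted p under 0.05 and 13 called by DESeq2. Among them were ribosomal proteins, immediate early genes and the respiratory chain, with medians of 0.18, 0.32 and -0.02. In the heat shock list 1 of 15 fell, Hspa4l (6.67% against 2.24% of all genes), and the median was -0.50. What these lists say of tissue handling was not tested.

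Markers of other liver cells moved with the groups in part. In bulk tissue, a change in the number of cells of a type and a change of RNA per cell cannot be told apart. Of 21 Kupffer cell and macrophage markers 0 passed in edgeR (8 at an unadjusted p under 0.05, 0 by DESeq2). Their summed level was nevertheless 348 to 464 CPM in the model, 485 to 1271 CPM in the 9 flavonol libraries and 172 to 260 CPM in the control, and none of the 22 was at 0 in all libraries. By compound the sum was 502 to 539 CPM with quercetin, 485 to 651 CPM with myricetin and 549 to 1271 CPM with kaempferol. Marco, a scavenger receptor gene in this list, was at 198 CPM in kaempferol library 8 and at 8.11 to 17.98 CPM in the other 8 flavonol libraries. B cell markers summed to 8.91 to 10.5 CPM in the model and 11.9 to 38.9 CPM with flavonols, with 0 of 8 called (3 at an unadjusted p under 0.05, 1 by DESeq2).

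Neutrophil markers summed to 5.09 to 10.8 CPM in the model and 8.89 to 32.9 CPM with flavonols, which overlapped. Adipocyte markers summed to 3691 to 4570.0 CPM in the model and 2084 to 3487 CPM with flavonols. That sum was mostly Car3, which hepatocytes also express, while the adipocyte genes Adipoq, Plin1 and Retn were at 0 in most libraries. Over 9 marker lists 0 of 106 genes passed (26 at an unadjusted p under 0.05, 7 by DESeq2). Of 15 T and NK cell markers 1 fell, Cd4 (6.67% against 2.24% of all genes), while the median of that list was 0.21. The part of these markers in the results on acute phase genes was not tested.

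The flavonol mean was also set against the control libraries, which enter the comparison above through the shared fit but not its contrast. Some genes passed and others did not, and not passing does not place a gene at the control level. For Moxd1 the group means lay on both sides of the control mean of 1.66 CPM. They were 0.197 CPM with quercetin, 3.37 CPM with myricetin and 5.00 CPM with kaempferol. The difference of the flavonol mean from the control was -0.16 ± 0.68 (SE) for Moxd1 (adjusted p = 0.894), 0.12 ± 0.25 (SE) for Socs3 (0.776) and 0.11 ± 0.12 (SE) for Cyp2j9 (0.584), and none of these passed. The clock genes Nr1d1 and Cry1 also passed against the control. Nr1d1 was at 1.46, 5.02 and 2.61 CPM in the control libraries, below all 9 flavonol libraries (adjusted p = 0.00015). The difference was -1.80 ± 0.16 (SE) for Cry1 (adjusted p = 3.69e-05). Calr at -0.55 ± 0.10 (SE) (0.00167) and Pdia4 at -1.13 ± 0.15 (SE) (0.00043) were below the control too. Slc39a14 was above the model and below the control, by -0.28 ± 0.09 (SE) (0.0372). These contrasts share the flavonol libraries with the comparison against the model, and all values are from the same edgeR fit.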

How the data were processed

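Liver RNA of 15 mouse libraries was analysed from a deposited table of gene-level values. Each is an expected count, headed as a read count per the file headers, and is unscaled. The build was GRCm38.p6, and the submitters' processing notes list RSEM 1.3.1, HISAT2 2.1.0, DESeq2 1.4.5 and Bowtie2 2.3.4.3 without saying what each did. Of the values 5.37% were not whole, as estimated counts can be, and all were rounded. The 30 columns of FPKM and TPM were not used.

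The filterByExpr step kept 12658 of 16809 genes. After TMM scaling, edgeR 4.0.16 (R 4.3.3) fitted a robust quasi-likelihood model that gave every group its own mean across the 15 libraries, with 10 residual degrees of freedom. The mean of the 3 compound groups was tested against the model, 2-sided, with Benjamini-Hochberg adjustment over all genes. The threshold was an adjusted p of 0.05. Standard errors were derived from the F statistic, so they are approximate, and their median was 0.132. The biological coefficient of variation was 0.155. CPM use TMM-scaled library sizes and are not per length, so levels of different genes were not compared. The code was tested on simulated data. Whether counting used strand is not given in the sources used here, so overlapping genes may share reads.

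Named genes are 12 fixed genes of lipid metabolism and flavonoid response, the 10 highest and 10 lowest passing genes whose 9 flavonol libraries did not overlap the model with a higher mean of 5 CPM or more (leaving out Gm, LOC and Rik symbols), and up to 3 passing members per direction of each list with at least 2. The comparison, the 37 lists (630 genes) and this rule were chosen with earlier results of these data known. KEGG groups were chosen after the values were seen. No set test was made. Some called genes are counted but not reported here by name. Alternatives were DESeq2 1.42.0, RLE scaling, no filter, fewer libraries, compounds left out, each library left out and the title number as a replicate block. Promoter windows come from RefSeq.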

Additional observations from a re-analysis of the deposited data

Results flagged for a closer look

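In 3 of the 42 named genes, 1 of the 9 flavonol libraries stood apart from the other 8 by Dixon's test, which chance does in about 1 of 20 groups. For Socs3 this was quercetin library 8, at 29.9 CPM, with 15.2 CPM in the next. For Cyp1a1 it was the same library, at 2.22 CPM, with 1.53 CPM in the next. For Cyp2c70 it was quercetin library 5, the lowest at 253 CPM, with 504 CPM in the next. The 9 libraries belong to 3 compounds, and groups of 3 were not tested.

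In 3 named genes all libraries of one compound lay above the model mean and all libraries of another below it. Srebf1 had log2 fold changes of 0.52 with quercetin, -0.23 with myricetin and -1.11 with kaempferol. Fasn had 0.39 with quercetin, -1.03 with myricetin and -1.52 with kaempferol. Dbp had 5.74 with quercetin, 2.65 with myricetin and -0.74 with kaempferol. The difference between compounds was not tested, and the doses differ.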

How the results depend on the processing

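The number of genes that passed was 284, of which 208 had the 9 flavonol libraries apart from the model and 28 were list members. These 3 counts were 630, 345 and 78 with DESeq2, 48, 46 and 5 with the 9 libraries as 1 group, 75, 71 and 11 without the quercetin group, 577, 456 and 55 without the kaempferol group, and 13, 9 and 4 with the title number as a replicate block. Left-out libraries gave 62 to 361 genes, 55 to 249 of them apart from the model, and 10 to 37 list members. The lowest came without model library 2, where 25.8% of calls were higher against 44% in all. The cause was not tested. The block moved that share to 7.69%. Of 14 pairs with the same title number 1 correlated over 0.1 (-0.337 to 0.211). Pairs with different numbers ran from -0.348 to 0.402. With so few libraries a group, this check cannot tell whether the numbers stand for a shared block. With RLE scaling 292 genes passed, with no filter 256, with the 12 high-fat libraries 235 and without robust fitting 303.

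Of the 31 named genes that passed, 12 did so whichever library was left out, and Nat8f5 passed in each of 7 other settings. The 284 genes kept their direction in every mean that left out a compound. These means reuse libraries by which the genes were selected, so that agreement was largely given in advance. Genes that did not pass changed direction. Cd36 (0.05) was at -0.10 without the kaempferol group and between -0.23 and 0.56 with single libraries left out. Sqle (-0.81) was between -1.26 and 0.54 with single libraries left out, the latter without model library 2. Srebf1 (-0.27) was at 0.14 without the kaempferol group. Alternatives for KEGG groups, single compounds and the control were added after the data were seen. With 3 libraries a group, the 95% interval of a log2 fold change reached 0.28 to either side for the median gene, which limits what smaller changes could show.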

Other observations

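Genes of autophagy and the lysosome held called members in both directions. These genes were looked up through the KEGG groups of the deposited annotation after their values were seen. Of 130 autophagy genes tested 4 rose and 3 fell (5.38% against 2.24% of all genes), with a median of 0.01. Ulk1, the kinase that starts autophagosome formation, was at 60.3, 54.8 and 57.2 CPM in the model, 101, 94.8 and 90.7 CPM with quercetin, 80.6, 85.4 and 66.2 CPM with myricetin and 81.5, 77.9 and 72.2 CPM with kaempferol. All 9 flavonol libraries were above the model, with a change of 0.53 ± 0.09 (SE) (edgeR adjusted p = 0.00542). The genes of the ubiquitin-like proteins Map1lc3b (0.36 ± 0.09 (SE), adjusted p = 0.0389) and Gabarapl1 (0.57 ± 0.13 (SE), 0.0311) and that of the lipid transfer protein Atg2a (0.40 ± 0.09 (SE), 0.035) also rose without overlap. Dapk1, Mtmr4 and Prkaca fell, with log2 fold changes of -0.78, -0.49 and -0.33. Without model library 2, 0 genes of this group passed in edgeR, and DESeq2 called 13 of it over all libraries.

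Of 121 lysosome genes tested 5 rose and 1 fell (4.96% against 2.24% of all genes), with a median of 0.05. Arsa, the arylsulfatase A gene, was at 30.7, 26.6 and 24.9 CPM in the model and 32.0 to 76.5 (median 46.8) CPM with flavonols, without overlap, with 0.78 ± 0.12 (SE) (edgeR adjusted p = 0.00313). Dnase2a, Neu1 and Ctsa rose by 0.66, 0.40 and 0.29 with overlapping groups. The lysosomal acid lipase gene Lipa fell, with -0.45 ± 0.08 (SE) (edgeR adjusted p = 0.00902). Without model library 2 the group had 1 call. Of 44 proteasome genes 2 rose (Psmb3 and Psmb10) and 0 fell (4.55% against 2.24% of all genes), with a median of 0.18. Regardless of the test, 8 of the 44 had all 9 flavonol libraries above the model and 0 had all below. Over all genes these shares were 2.33% above and 2.35% below. In edgeR 0 passed without the quercetin group, with the 9 libraries as 1 group, or without control library 2, and DESeq2 called 5 over all libraries.

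Other single genes, also chosen after their values were seen, passed the test, and for Isg15 and Odc1 the 9 flavonol libraries did not overlap the model. Isg15, an interferon-induced ubiquitin-like protein, was at 8.14, 6.51 and 7.71 CPM in the model and 9.89 to 14.5 (median 12.4) CPM with flavonols, with 0.72 ± 0.12 (SE) (edgeR adjusted p = 0.00567). Odc1, the first enzyme of polyamine synthesis, was at 72.1, 95.6 and 76.7 CPM in the model and 45.2 to 65.6 (median 51.7) CPM with flavonols, with -0.62 ± 0.10 (SE) (edgeR adjusted p = 0.00542).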
